A study of Mus musculus with 4 samples.

Results

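The 10 genes described here are regulators and stage genes of the oligodendrocyte lineage. They are *Olig1*, *Olig2*, *Sox10*, *Nkx2-2*, *Myrf*, *Zfp488* and *Tcf7l2*, which encode transcription factors, and *Gpr17*, *Bcas1* and *Enpp6*, which mark stages between the precursor and the myelinating cell. They were chosen by symbol, and 10 of 10 were found among the 32286 features counted. Nuclei from 5-week-old mice, taken from cortex and hippocampus together, were profiled by single-nucleus RNA sequencing with the 10x Genomics 3′ chemistry, which counts RNA molecules by unique molecular identifiers (UMIs). Of the 4 libraries, 2 were labelled Sel1L flox/flox, the floxed control, and 2 were labelled Sel1L Syn-Cre, in which the same floxed *Sel1L* is combined with a Cre driven by the Synapsin I promoter, each library being 1 mouse. SEL1L is the adaptor of the HRD1 ubiquitin ligase in endoplasmic reticulum-associated degradation, and the Synapsin I promoter is active in postmitotic neurons, so a gene of oligodendrocytes was compared in cells that the deletion was not designed to reach. The question was how these genes stood in oligodendrocyte precursor cells (OPCs), immature oligodendrocytes and mature oligodendrocytes, and whether their levels differed between the labels at each stage.

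Oligodendrocytes arise from OPCs, which divide, leave the cell cycle, pass through a short premyelinating stage and then wrap axons in myelin. Olig2 specifies the lineage and, like Olig1 and Sox10, stays on through it. Nkx2-2 and Zfp488 act as repressors around the exit from the precursor state, and Myrf drives the myelin genes. Tcf7l2 is a nuclear effector of Wnt signalling that the lineage uses in a narrow window at differentiation, Gpr17 is a receptor of committed precursors that holds back their maturation, and Bcas1 and the choline phosphodiesterase Enpp6 mark newly forming oligodendrocytes.

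After filtering, 33323 nuclei were kept, of which 5210 belonged to the lineage. Clusters of integrated nuclei were named from marker genes, and the 10 genes were left out of the features used to cluster. OPC-like nuclei (1267) held 7 of 7 OPC markers, among them *Pdgfra* and *Cspg4*, and a cluster of 3743 nuclei, most of them mature oligodendrocyte-like, held 12 of 12 mature markers, among them *Mog* and *Mag*. Immature oligodendrocyte-like nuclei (210) were a separate cluster led by *Frmd4a*, *Bmp4*, *Kif19a*, *Rras2* and *Cnksr3*, and mature oligodendrocyte-like nuclei numbered 3733. In the order Sel1L flox/flox replicates 1 and 2 and Sel1L Syn-Cre replicates 1 and 2, which is kept for every set of 4 values here, there were 397, 358, 278 and 234 OPC-like, 122, 66, 10 and 12 immature and 1842, 1171, 355 and 365 mature nuclei. The summed UMIs were 981427 to 1727229 per library in OPC-like nuclei, 50090 to 751320 in immature nuclei and 1025517 to 6716327 in mature nuclei. The immature sums of the libraries labelled Sel1L Syn-Cre, 65085 and 50090 UMIs, therefore rest on few nuclei.

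Some measurements of the libraries touch every comparison of labels. *Sel1l*, the targeted gene, had 96.9, 90.1, 155 and 128 CPM (a gene's UMI count relative to the library's total) in the 4 libraries, a higher level under the label Sel1L Syn-Cre. In OPC-like nuclei it had 113, 91.7, 419 and 185 CPM, and it rose by 1.55 ± 0.20 on the log2 scale (SE, edgeR adjusted p = 1.96e-08). UMIs of the Cre feature were 31, 0, 19 and 12 in OPC-like nuclei, so a library labelled Sel1L flox/flox held them and the other did not. Directions are therefore given between libraries as labelled. Each label held 1 male (replicate 1) and 1 female mouse (replicate 2) by *Xist* and *Ddx3y*, and pairs of libraries shared 9 to 28 barcodes, at most 0.412% of the smaller library. Every p-value takes these 4 libraries, not the nuclei, as replicates. Those of edgeR also draw on the spread of other genes, so they do not measure a gene's own spread between the 4 libraries alone.

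Sequences before start sites of *Nkx2-2*, *Enpp6* and *Tcf7l2*, which had called differences described here, are shown first. In the GENCODE annotation of GRCm38 these genes span chr2:147177546-147194243, chr8:46986887-47096762 and chr19:55741820-55933654. Start sites were taken from RefSeq (GRCm38.p6), which matched 5 of the 10 genes, and 250 bases before each start are printed 5′ to 3′ on the strand of the gene. On either strand, capitals mark the E-box CAGATG or the SOX-type motifs ACAATG and ACAAAG. The E-box CAGCTG and the TCF/LEF motif CTTTGA were searched as well. *Nkx2-2* lies on the minus strand, and its window (chr2:147186403-147186652) falls within the GENCODE span of the gene. *Enpp6* lies on the plus strand (chr8:46986637-46986886). *Tcf7l2* is on the plus strand with a first start after chr19:55741560-55741809 and a second, within the gene, after chr19:55895071-55895320.
Nkx2-2: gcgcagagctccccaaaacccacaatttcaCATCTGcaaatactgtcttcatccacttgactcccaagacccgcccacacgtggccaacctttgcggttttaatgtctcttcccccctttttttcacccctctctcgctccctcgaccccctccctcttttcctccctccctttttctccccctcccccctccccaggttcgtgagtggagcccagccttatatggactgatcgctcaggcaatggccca
Enpp6: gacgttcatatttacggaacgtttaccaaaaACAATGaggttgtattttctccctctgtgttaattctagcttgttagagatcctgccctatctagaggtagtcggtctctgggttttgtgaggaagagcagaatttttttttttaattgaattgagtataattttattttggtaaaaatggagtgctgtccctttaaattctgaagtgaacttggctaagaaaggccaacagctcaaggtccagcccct
Tcf7l2 start 1: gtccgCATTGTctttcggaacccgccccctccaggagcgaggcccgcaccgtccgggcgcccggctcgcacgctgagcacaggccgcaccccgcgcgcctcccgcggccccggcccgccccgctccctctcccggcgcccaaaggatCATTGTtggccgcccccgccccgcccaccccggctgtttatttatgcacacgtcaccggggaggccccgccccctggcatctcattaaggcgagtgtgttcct
Tcf7l2 start 2: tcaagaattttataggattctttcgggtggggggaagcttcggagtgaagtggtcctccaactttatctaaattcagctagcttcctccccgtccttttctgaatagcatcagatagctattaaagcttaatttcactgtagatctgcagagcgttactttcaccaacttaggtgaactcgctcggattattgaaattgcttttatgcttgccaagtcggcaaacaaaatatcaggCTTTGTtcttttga
The window of *Nkx2-2* held CAGATG with its first base at -220 from the start, a motif present in 14.4% of 32851 promoters of this length. The window of *Enpp6* held ACAATG at -219, and the first window of *Tcf7l2* held it at -245 and -103, against 10.7% of all promoters. The second window of *Tcf7l2* held ACAAAG at -14, which 16.5% of promoters hold. None of the 4 windows held CAGCTG (13.0% of promoters) or CTTTGA (13.8%). The GC content of the windows ranged from 38.4% (*Enpp6*) to 72.8% (first start of *Tcf7l2*). *Olig2* held ACAATG at -68 and *Zfp488* held none of the 5 motifs, and *Olig1*, *Sox10*, *Myrf*, *Gpr17* and *Bcas1* were not in the promoter table.

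The levels of the 10 genes by stage are given first as a description, since the stages are clusters of the same nuclei. A level here is a gene's UMI count relative to the total of that class in a library, as CPM, and levels were compared within a gene only. The 3 lineage factors were present at every stage. *Sox10*, an HMG-box factor, had 370, 515, 466 and 519 CPM in OPC-like, 563, 696, 615 and 679 CPM in immature and 383, 539, 409 and 450 CPM in mature nuclei. Every immature value lay above every OPC-like value, while OPC-like and mature values overlapped. *Olig1*, a bHLH factor, was highest in OPC-like nuclei (142 to 187 CPM) and had 76.8 to 139.7 CPM in immature and 63.4 to 122 CPM in mature nuclei, with overlap between immature and mature values. *Olig2*, its bHLH neighbour on the same chromosome, had 153 to 211 CPM in OPC-like and 99.8 to 184 CPM in immature nuclei, which overlapped, and 17.6 to 57.2 CPM in mature nuclei, below all of them.

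The repressors were lowest in mature nuclei or overlapped with them. *Nkx2-2*, a homeobox factor, had 41.0 to 93.2 CPM in OPC-like, 39.9 to 157 CPM in immature and 26.7 to 46.8 CPM in mature nuclei, and neighbouring stages overlapped. In the libraries labelled Sel1L flox/flox the immature mean of *Nkx2-2* was 3.56 times the mature mean. *Zfp488*, a zinc finger co-repressor, had 39.9 to 122 CPM in immature and 46.9 to 50.9 CPM in OPC-like nuclei, which overlapped, and 17.6 to 24.8 CPM in mature nuclei, below both.

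*Myrf* and *Tcf7l2* both had higher levels past the OPC-like stage and ended differently. *Myrf*, a membrane-bound factor that is cleaved to enter the nucleus, had 12.7 to 18.3 CPM in OPC-like nuclei and 61.5 to 181 CPM in immature nuclei, and it stayed at 139 to 186 CPM in mature nuclei, overlapping the immature values. *Tcf7l2*, an HMG-box factor, had 1979, 1671, 707 and 159.7 CPM in immature nuclei against 138 to 166 CPM in OPC-like and 57.5 to 89.1 CPM in mature nuclei. The immature level of the library labelled Sel1L Syn-Cre replicate 2 lay within the range of OPC-like nuclei, and the other 3 immature libraries lay far above it. In the libraries labelled Sel1L flox/flox the immature mean was 11.2 times the OPC-like mean and 31.1 times the mature mean.

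*Bcas1* and *Enpp6* peaked in the immature class, and *Gpr17* was low in mature nuclei. *Gpr17* had 208, 302, 138 and 39.9 CPM in immature nuclei, 89.1 to 158 CPM in OPC-like nuclei and 0.919 to 6.64 CPM in mature nuclei. Its immature and OPC-like values overlapped, and all mature values lay below both. *Bcas1* had 3270, 3903, 1828 and 1497 CPM in immature, 677 to 772 CPM in mature and 457 to 598 CPM in OPC-like nuclei, with no overlap between the stages. *Enpp6* had 700.1, 767, 230.5 and 179.7 CPM in immature and 71.2 to 139 CPM in mature nuclei, with 1, 2, 1 and 0 UMIs in OPC-like nuclei. The count of 0 allows up to 3 UMIs in 981427.

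**Figure D1:**
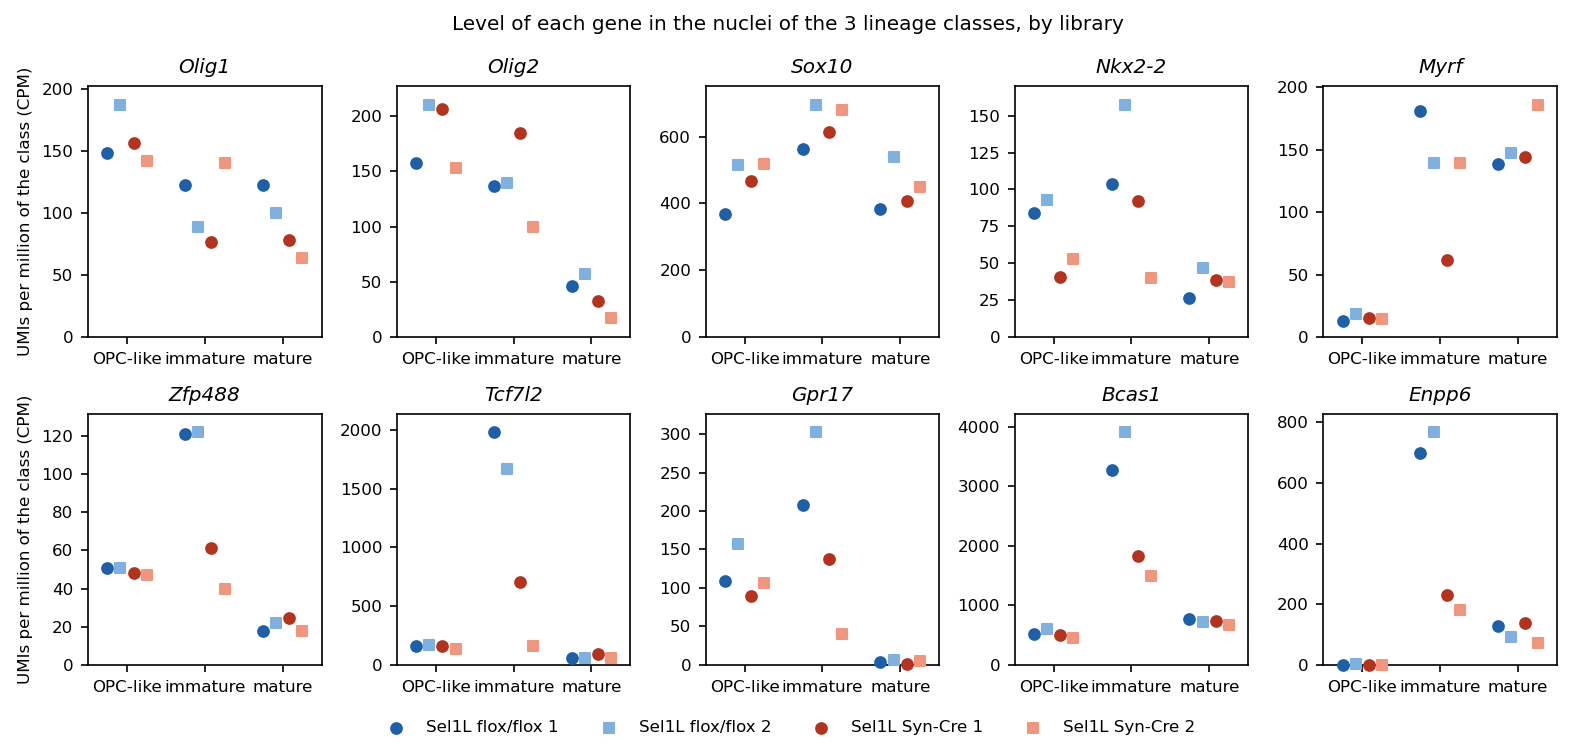
Level of each of the 10 genes (CPM, linear axes that start at 0) in OPC-like, immature and mature oligodendrocyte-like nuclei, with 1 point per library, blue for Sel1L flox/flox and red for Sel1L Syn-Cre. *Bcas1*, *Enpp6* and *Tcf7l2* are highest in the immature class of every library, *Gpr17* in that of 3 libraries but not of Sel1L Syn-Cre 2, *Myrf* stays up in mature nuclei, and *Sox10* is present at every stage.

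Within the immature class, finer clustering separated nuclei led by *Bmp4* and *Fyn* (78, 48, 7 and 11) from nuclei led by *Casr* and *Rras2* (44, 18, 3 and 1), and the 10 genes, not used to cluster, were distributed differently over them. In the libraries labelled Sel1L flox/flox, *Gpr17* had 353 and 466 CPM in the *Bmp4*-led and 45.1 and 57.0 CPM in the *Casr*-led nuclei. *Nkx2-2* had 189 and 263 CPM against 8.45 and 0 CPM, the latter from 3 and 0 UMIs. *Bcas1* had 5000.5 and 5382 CPM against 1338 and 1692 CPM. These 3 genes were thus higher in the *Bmp4*-led nuclei in both libraries. *Tcf7l2* went the other way, with 1400.2 and 1360.3 CPM against 2626 and 2136 CPM, and so did *Myrf*, with 124 and 110.2 CPM against 245 and 184 CPM. *Enpp6* was the higher in the *Bmp4*-led nuclei (933 and 843 CPM against 439 and 653 CPM). The libraries labelled Sel1L Syn-Cre had 3 and 1 *Casr*-led nuclei, too few to describe.

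**Figure D2:**
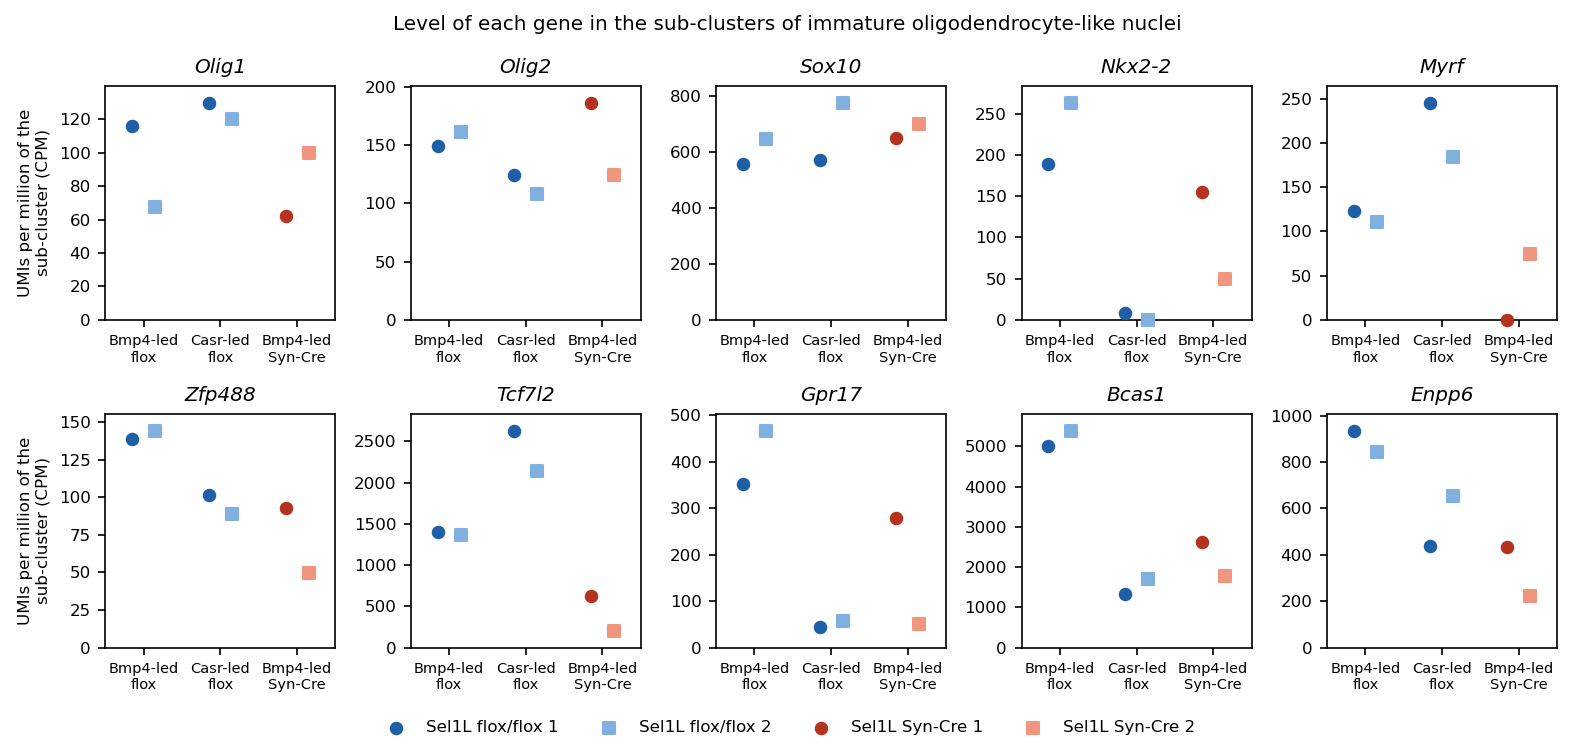
Level (CPM) of the 10 genes in the *Bmp4*-led and the *Casr*-led sub-cluster of the immature class, on linear axes that start at 0, with 1 point per library. The *Casr*-led nuclei are plotted for Sel1L flox/flox alone. *Nkx2-2*, *Gpr17* and *Bcas1* are higher in the *Bmp4*-led nuclei of both libraries labelled Sel1L flox/flox, and *Tcf7l2* and *Myrf* in the *Casr*-led ones.

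Of the 10 genes, *Tcf7l2* had the smallest share of its UMIs in lineage nuclei in every library. It had 309 to 384 CPM in astrocyte-like nuclei, 260.3 to 306 CPM in endothelial-like nuclei and 276 to 328 CPM in a shallow cluster of 2245 nuclei that held 6 of 7 microglia markers and was left unnamed. Lineage nuclei accordingly held only 60.9%, 61.1%, 17.3% and 21.8% of the *Tcf7l2* UMIs of the 4 libraries. For *Sox10* the same share was 93.2% to 98.4%, and for *Bcas1* it was 90.3% to 97.7%. For *Nkx2-2* it was 90.7%, 94.6%, 69.6% and 80%, for *Myrf* 89.9%, 88.7%, 74.2% and 72.4%, and for *Olig1* 85.8%, 84.7%, 78.9% and 71.8%. *Bcas1* also had 24.3 to 40.7 CPM in astrocyte-like and 16.1 to 45.9 CPM in endothelial-like nuclei. *Enpp6* had at most 53.6 CPM in endothelial-like nuclei, with 9 UMIs over the 4 libraries. In neuron-like nuclei no gene of the 10 exceeded 2.77 CPM in any library.

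Between the labels, OPC-like nuclei showed 1 difference among the 10 genes, and it was in *Nkx2-2*. The UMIs of each class were summed per library and the labels compared with edgeR's quasi-likelihood test over 11214 genes, with Benjamini-Hochberg adjustment. Levels beside a fold change are CPM scaled by edgeR's TMM factors. *Nkx2-2* had 145, 127, 46 and 52 UMIs, or 87.2, 93.1, 41.9 and 53.4 CPM. Both libraries labelled Sel1L Syn-Cre lay below both labelled Sel1L flox/flox, and the gene fell by 0.92 on the log2 scale (SE 0.21, edgeR adjusted p = 0.00212), to 0.528 of the control level. Of the 9 genes that passed the filter on low counts it was the only one called. In the same comparison 4.12% of all genes tested were called in either direction, 1.87% lower and 2.25% higher. The median log2 fold change was -0.12 over the 9 genes and -0.00 over all genes. *Enpp6*, with at most 2 UMIs per library, did not pass the filter.

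The same UMIs behind the fall of *Nkx2-2* in OPC-like nuclei were also counted as nuclei with a UMI, which is no separate support. Nuclei with fewer than 2000 UMIs were left out, and each of the others was thinned to 2000 UMIs. Of those left, 14.4%, 15.3%, 8.27% and 9.73% of OPC-like nuclei held an *Nkx2-2* UMI, against 0.0375% to 0.0699% of neuron-like nuclei, which should lack it. Without thinning, the shares were 28.7%, 26.8%, 14.7% and 17.9%, at medians of 3608.5 to 3880 UMIs in OPC-like and 9583.5 to 10424 UMIs in neuron-like nuclei. The thinned difference was -5.83 points, with no overlap, and its exact two-sided permutation p was 0.333, the smallest that 6 arrangements of 4 libraries allow. Summed counts of a class cannot by themselves tell fewer nuclei with the RNA from less RNA per nucleus. At so few *Nkx2-2* UMIs per nucleus, the shares cannot tell these apart either. Without the library labelled Sel1L Syn-Cre replicate 1 the fall was 0.75 (edgeR adjusted p = 0.237), and the call was also lost with DESeq2 (adjusted p = 0.165), with doublets kept (0.0756) and with no filter on low counts (0.0689).

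The other lineage genes of OPC-like nuclei did not pass the test. *Gpr17* had 188, 215, 100 and 104 UMIs, or 113, 158, 91.0 and 107 CPM, with a log2 fold change of -0.45 ± 0.19 (SE, edgeR adjusted p = 0.219) and no overlap between the labels. With each library left out in turn it ranged from -0.67, without Sel1L flox/flox replicate 1, to -0.19. *Bcas1* had 540.4, 598, 521 and 461 CPM, also without overlap, and -0.21 ± 0.15 (adjusted p = 0.626). *Olig1*, *Olig2*, *Sox10*, *Myrf*, *Zfp488* and *Tcf7l2* had log2 fold changes between -0.17 and 0.15 and adjusted p-values of 0.777 or more by edgeR. In all, 4 of the 9 genes did not overlap between the labels, beside 42% of all genes tested.

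In immature oligodendrocyte-like nuclei, *Enpp6* was the only one of the 10 genes that passed the test. *Enpp6* had 526, 302, 15 and 9 UMIs, or 835, 899, 274 and 196 CPM. Both libraries labelled Sel1L Syn-Cre lay far below both controls, and *Enpp6* fell by 1.87 on the log2 scale (SE 0.33, edgeR adjusted p = 0.0373), to 0.273 of the control level. It was called as 1 of 10 genes tested, where 1.63% of 4549 genes were called in either direction, 0.681% lower and 0.945% higher. In the library labelled Sel1L Syn-Cre replicate 2, all 9 UMIs came from 1 of 12 nuclei, and in replicate 1 the 15 UMIs came from 5 of 10 nuclei. Without thinning, 76.2%, 78.8%, 50.0% and 8.33% of immature nuclei held an *Enpp6* UMI at medians of 3812.5 to 5842 UMIs, against 0.295% to 0.769% of neuron-like nuclei. Among the immature nuclei with at least 2000 UMIs, thinned to that number, the shares were 62.8%, 59.4%, 40.0% and 9.09%.

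The direction of *Enpp6* was the same in every alternative run, while its call was not. The call was lost without Sel1L flox/flox replicate 1 (-1.95, edgeR adjusted p = 0.963), without Sel1L flox/flox replicate 2 (-1.82, adjusted p = 0.134) and with the replicate number, and so sex, as a block (-1.87, adjusted p = 0.316). With doublets kept it was -0.92 (adjusted p = 0.560) and with classes named without integration -0.87 (adjusted p = 0.639). It was also lost with no filter (adjusted p = 0.271), with library totals in place of TMM (0.0740) and when thinned (0.0595). Without integration, 195 of the 210 immature nuclei kept that name. The immature share of the lineage under the label Sel1L Syn-Cre was then 0.949% ± 0.647 (SD, n = 2), beside 1.76% ± 0.289 with integration. Under the label Sel1L flox/flox it was 4.61% ± 0.843 beside 4.65% ± 0.728. The part of class membership in the lower *Enpp6* sums was not tested.

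*Tcf7l2* had the largest fold change of the 10 genes in the immature class. Its UMIs were 1487, 658, 46 and 8, or 2360.0, 1959, 840.5 and 174 CPM, which places both libraries labelled Sel1L Syn-Cre below both controls and far from each other. The log2 fold change was -2.06 ± 0.55 (SE, edgeR adjusted p = 0.0990), which missed the threshold. Without Sel1L Syn-Cre replicate 1 it was -3.75, which rests on 8 UMIs under that label, and without Sel1L Syn-Cre replicate 2 it was -1.47. These were the ends of its range with each library left out in turn. In nuclei with a *Tcf7l2* UMI the library labelled Sel1L Syn-Cre replicate 2 stood apart, with 3 of 12 nuclei (25.0%) against 90.0% to 93.9% in the other 3.

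*Bcas1*, *Gpr17*, *Zfp488*, *Nkx2-2* and *Myrf* did not pass the test in the immature class. *Bcas1* had 3899.5, 4575, 2174 and 1631 CPM (-1.15 ± 0.33, SE, edgeR adjusted p = 0.128), *Gpr17* had 156, 119, 9 and 2 UMIs (-1.47 ± 0.50, adjusted p = 0.168), and *Zfp488* had 91, 48, 4 and 2 UMIs (-1.27 ± 0.45, adjusted p = 0.180). *Nkx2-2* had 78, 62, 6 and 2 UMIs (-0.95 ± 0.50, adjusted p = 0.351) and *Myrf* 136, 55, 4 and 7 UMIs (-0.79 ± 0.43, adjusted p = 0.379). Both libraries labelled Sel1L Syn-Cre were below both controls in all 5. Without Sel1L Syn-Cre replicate 1, *Bcas1* was -1.495 (edgeR adjusted p = 0.00346) and *Gpr17* -2.88 (adjusted p = 0.00350).

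The 3 lineage factors overlapped between the labels in the immature class. *Sox10* had 671, 816, 731 and 739 CPM (-0.02 ± 0.29, SE, edgeR adjusted p = 0.981). *Olig1* had 92, 35, 5 and 7 UMIs (-0.07 ± 0.43, adjusted p = 0.961) and *Olig2* 103, 55, 12 and 5 UMIs (0.03 ± 0.39, adjusted p = 0.978). With SEs of this size a moderate difference was not detectable at this depth. In total, 7 of the 10 genes did not overlap between the labels, beside 49.5% of all genes tested, and the median log2 fold change was -1.05 over the 10 genes and -0.05 over all genes.

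Some levels of other stages and cell types also moved in the immature class, and their part in these values was not tested. The 17 OPC genes summed to 11695, 13346, 12768 and 16970 CPM, which overlapped between the labels. Over the 13 of them that were tested, however, the median log2 fold change was 1.13, beside -0.05 over all genes. The 36 myelin and mature stage genes summed to 24976, 21170, 19329 and 10661 CPM, without overlap. The 7 astrocyte markers summed to 65.2, 50.8, 138 and 299 CPM, with 4 of them at 0 in each library labelled Sel1L Syn-Cre. The 9 neuron markers summed to 632, 500.3, 369 and 998 CPM, which overlapped. In the *Bmp4*-led nuclei alone, an alternative chosen after seeing the data, *Enpp6* (-1.56, adjusted p = 0.0191), *Tcf7l2* (-1.90, adjusted p = 0.0178) and *Bcas1* (-1.34, adjusted p = 0.0161) were called lower by edgeR. The same test called 278 of 3168 genes, 138 lower and 140 higher. It rests on 7 and 11 nuclei in the libraries labelled Sel1L Syn-Cre.

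In mature oligodendrocyte-like nuclei none of the 10 genes passed edgeR's test. An unadjusted p under 0.05 was found for 2 of them, *Olig1* and *Olig2*, and for 1269 of the 11450 genes tested. In this class 0.865% of 11450 genes were called in either direction, 0.201% lower and 0.664% higher. *Olig2* had 311, 198, 36 and 18 UMIs, or 47.1, 58.3, 34.2 and 16.99 CPM, with a log2 fold change of -1.04 ± 0.29 (SE, edgeR adjusted p = 0.176). *Olig1* had 822, 347, 85 and 65 UMIs, or 124, 102, 80.7 and 61.3 CPM, and -0.68 ± 0.19 (adjusted p = 0.182). Both libraries labelled Sel1L Syn-Cre were below both controls in these 2 genes, and 41.6% of all genes tested likewise did not overlap.

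Both of these bHLH genes passed the threshold in some alternatives and not in others. With the replicate number, which matches the sex of the mice, as a block, *Olig2* (-1.03, edgeR adjusted p = 0.00174) and *Olig1* (-0.68, adjusted p = 0.00929) were called lower. Without Sel1L Syn-Cre replicate 1, *Olig2* was -1.64 (adjusted p = 0.00519) and *Olig1* -0.91 (adjusted p = 0.0415), and without Sel1L flox/flox replicate 2 *Olig1* was -0.81 (adjusted p = 0.0224), by edgeR. Without Sel1L Syn-Cre replicate 2, *Olig2* was -0.63 (edgeR adjusted p = 0.393) and *Olig1* -0.50 (adjusted p = 0.425), and without Sel1L flox/flox replicate 1 *Olig1* was -0.53 (adjusted p = 0.668). Nuclei with fewer than 2000 UMIs were again left out and the others thinned to that number. Of those left, 7.87%, 10.3%, 6.43% and 2.41% of mature nuclei held an *Olig2* UMI, against 0.0373% to 0.196% of neuron-like nuclei. The unthinned shares were 14.2%, 14.2%, 9.01% and 4.38%, at medians of 2567 to 3259.5 UMIs.

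The other 8 genes overlapped between the labels in mature nuclei. *Myrf* had 141, 151, 149 and 180.3 CPM (0.17 ± 0.16, SE, edgeR adjusted p = 0.768) and *Tcf7l2* 60.8, 58.6, 92.0 and 59.5 CPM (0.34 ± 0.21, adjusted p = 0.623). *Enpp6* had 131, 93.7, 143 and 68.9 CPM (-0.09 ± 0.29, adjusted p = 0.953), and its values overlapped between the labels. *Nkx2-2* had 27.1, 47.7, 39.9 and 35.9 CPM (0.04 ± 0.28, adjusted p = 0.980). *Sox10*, *Zfp488*, *Bcas1* and *Gpr17* had log2 fold changes of -0.13, 0.08, -0.10 and -0.78, the last from 24, 23, 1 and 5 UMIs. The median was -0.09 over the 10 genes and 0.00 over all genes.

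Whether a difference between the labels itself differed between mature and OPC-like nuclei was tested as an interaction in edgeR with the library as a block. None of the 10 genes was called at an adjusted p under 0.05, where 0.484% of 11977 genes were. An unadjusted p under 0.05 was found for 3 of the 10 genes and for 1099 of the 11977. For *Nkx2-2* the mature minus OPC-like difference was 1.03 ± 0.32 (SE, adjusted p = 0.239), and for *Olig2* it was -1.01 ± 0.25 (adjusted p = 0.120). The fall of *Nkx2-2* in OPC-like nuclei was therefore not shown to be particular to that stage.

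**Figure D3:**
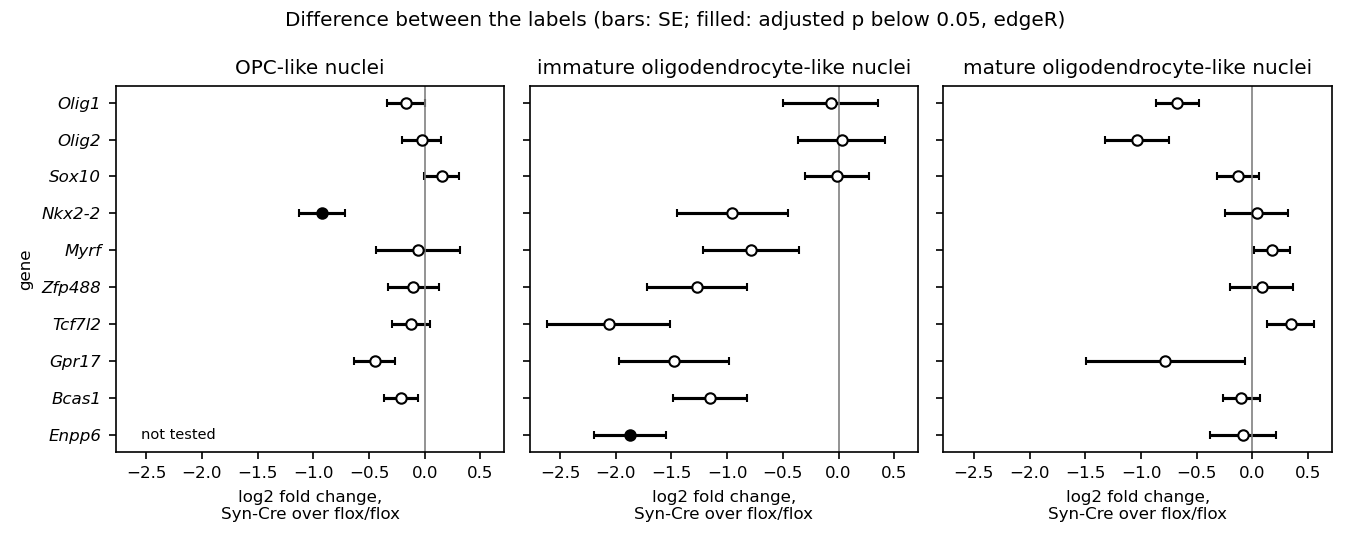
Log2 fold change of each of the 10 genes, Sel1L Syn-Cre over Sel1L flox/flox, with its SE in OPC-like, immature and mature oligodendrocyte-like nuclei, and called genes as filled points. *Nkx2-2* in OPC-like nuclei (-0.92) and *Enpp6* in immature nuclei (-1.87) are the genes called.

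The mix of stages differed between the labels as well. Immature nuclei numbered 30.7 and 18.4 per 100 OPC-like nuclei in the libraries labelled Sel1L flox/flox and 3.597 and 5.13 in those labelled Sel1L Syn-Cre, and mature nuclei 4.64, 3.27, 1.28 and 1.56 per OPC-like nucleus. The share of the lineage that was OPC-like was 19.6% ± 3.98 (SD, n = 2) against 40.8% ± 3.49, with an exact two-sided permutation p of 0.333. For immature nuclei it was 4.65% ± 0.728 against 1.76% ± 0.289, and for mature nuclei 75.7% ± 3.25 against 57.5% ± 3.202, with the same exact permutation p and no overlap. Of all kept nuclei, OPC-like nuclei were 4.06% ± 0.694 (SD, n = 2) and 3.56% ± 0.176, which overlapped (exact permutation p = 0.667). Of the markers that named the immature class, *Itpr2* and *Tns3* differed between the labels, as did *Frmd4a* and *Kif19a*, which led its cluster. The size of the class and its name can therefore not be told apart.

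**Figure D4:**
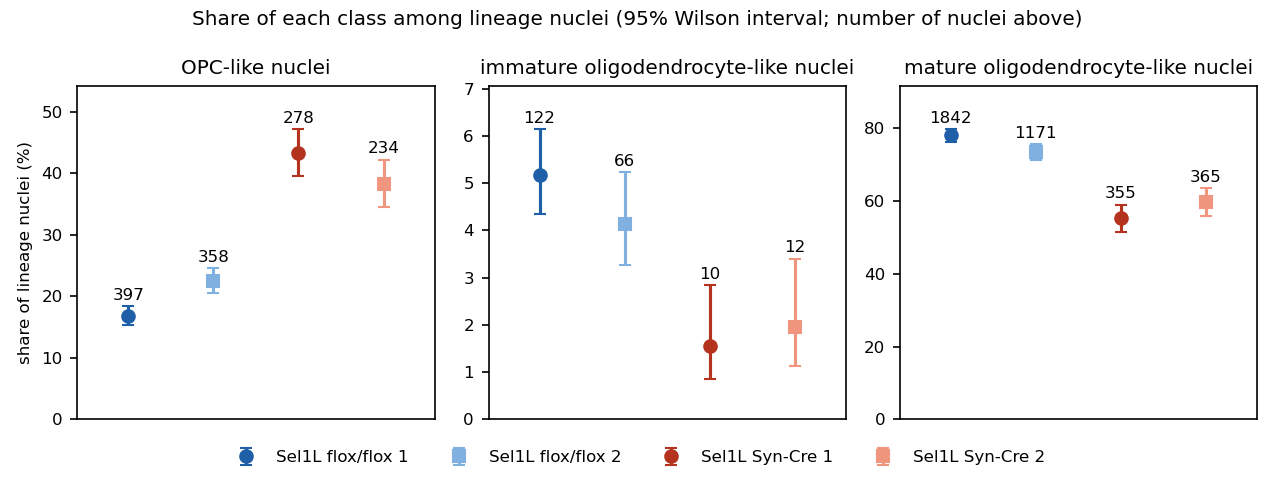
Share of the lineage nuclei of each library that were OPC-like, immature or mature oligodendrocyte-like (percent, with 95% Wilson intervals for counting error). The libraries labelled Sel1L Syn-Cre hold larger OPC-like and smaller immature and mature shares, without overlap.

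With the 3 stages summed, 3 of the 10 genes were called lower. How much of this came from the mix of stages and how much from the levels within a stage was not tested. *Enpp6* (159, 121, 73.2 and 38.4 CPM) fell by 1.32 on the log2 scale (SE 0.25, edgeR adjusted p = 0.00691), *Tcf7l2* (247, 210.2, 143 and 96.5 CPM) by 0.93 (SE 0.18, adjusted p = 0.00880) and *Bcas1* (974, 937, 653 and 571 CPM) by 0.64 (SE 0.15, adjusted p = 0.0209). All 3 had no overlap between the labels. In all, 6 of the 10 genes did not overlap, beside 52.8% of all genes tested. *Enpp6*, *Tcf7l2* and *Bcas1* were 3 of 10 genes called, where 10.9% of 13564 genes were called, 4.6% lower and 6.32% higher. *Myrf* had 125, 115, 78.0 and 99.3 CPM (-0.43 ± 0.15, SE, edgeR adjusted p = 0.0999). The call of *Tcf7l2* was lost without Sel1L Syn-Cre replicate 2 (adjusted p = 0.0757), that of *Bcas1* without either library labelled Sel1L Syn-Cre (adjusted p = 0.126 and 0.284), and those of *Tcf7l2* (adjusted p = 0.238), *Bcas1* (0.0550) and *Enpp6* (0.0694) with doublets kept.

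Other genes of the lineage were taken from lists that had been chosen with earlier results of these data known. In OPC-like nuclei, 2 of 31 other regulators tested were lower and 1 was higher. *Zeb2*, a zinc finger factor that promotes myelination, had 830, 676, 492 and 504 CPM (-0.60 ± 0.15, SE, edgeR adjusted p = 0.00897), *Zfp536* was lower too (-0.55, adjusted p = 0.0395), and *Klf9*, a thyroid hormone-responsive factor, was higher (1.01, adjusted p = 0.00193). Of 18 inhibitors of differentiation, the Notch target *Hes1* was higher (26, 45, 74 and 30 UMIs, 1.05, edgeR adjusted p = 0.0186). The ligand *Bmp4* was lower (27, 27, 6 and 6 UMIs, -1.61, edgeR adjusted p = 0.0226), and it passed the filter on low counts through the controls alone. Of 20 premyelinating genes other than the 10, *Bmp4* was the only one called. Of 17 OPC genes, *Nxph1* (-0.75, adjusted p = 0.000555) and the proteoglycan *Vcan* (-0.56, adjusted p = 0.0187) were lower. *Hes1* overlapped between the labels (15.6, 33.0, 67.4 and 30.8 CPM), and without Sel1L Syn-Cre replicate 1 it was 0.37 (edgeR adjusted p = 0.844). Without that library the other 6 genes kept their direction and none was called (edgeR adjusted p from 0.153 for *Klf9* to 0.718 for *Vcan*).

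Genes of dividing cells were lower in OPC-like nuclei labelled Sel1L Syn-Cre. Of 12 in the files, 7 were tested and 6 were lower, where 1.87% of all genes tested were lower. Among the 6 were *Top2a* with 80, 71, 0 and 0 UMIs and *Mki67* with 22, 29, 3 and 0 UMIs (adjusted p = 0.00013 by edgeR). The 6 genes had at most 3.08 CPM in either library labelled Sel1L Syn-Cre. They passed the filter on low counts through the controls alone, so they could be called only lower. A sub-cluster led by *Top2a* held 26, 17, 0 and 1 nuclei. Without this sub-cluster the fall of *Nkx2-2* was 0.93 (edgeR adjusted p = 0.00494), an alternative chosen after seeing the data. Over the 4 libraries pooled, *Nkx2-2* had 73.9 CPM in the sub-cluster of 44 nuclei and 71.2 CPM in the class. Leaving these nuclei out could therefore hardly move the value, and the part of dividing nuclei in the fall was not tested. Of 18 myelin and mature stage genes tested in OPC-like nuclei, 5 were lower by edgeR, among them *Trf* (-1.83, adjusted p = 0.0481), *Mal* (-1.67, adjusted p = 0.0458), *Tspan2* (-1.14, adjusted p = 0.00872) and *Nkain2* (-0.84, adjusted p = 0.0134). *Trf*, with at most 4.11 CPM in either library labelled Sel1L Syn-Cre, also passed the filter through the controls alone. *Nkain2* was 0.10 without Sel1L flox/flox replicate 1, so that library decides it. *Mal* was -0.92 (edgeR adjusted p = 0.674) without Sel1L Syn-Cre replicate 1, -1.06 (0.674) without Sel1L flox/flox replicate 1 and -3.03 (0.0814) without Sel1L Syn-Cre replicate 2. Without Sel1L Syn-Cre replicate 1 the calls of *Trf* (adjusted p = 0.482), *Tspan2* (0.180) and *Nkain2* (0.431) were lost too, and that of *Mki67* was lost without Sel1L Syn-Cre replicate 2 (0.0775).

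Few markers of other cell types were called in OPC-like nuclei. The 9 neuron markers summed to 1564, 1409, 1316 and 1325 CPM, with *Syt1* called lower (-0.89, edgeR adjusted p = 0.000607), 1 of 8 tested. The 7 astrocyte markers summed to 574, 629, 637 and 771 CPM, with *Slc1a2* called higher (0.54, adjusted p = 0.0304), 1 of 4 tested. Neither *Syt1* (edgeR adjusted p = 0.243) nor *Slc1a2* (0.216) was called without Sel1L Syn-Cre replicate 1. Of 3 microglia markers none was called by edgeR. The part of such RNA in the values above was not tested, and *Nkx2-2* itself was at 0.226 CPM or less in neuron-like nuclei and at 11.5 to 16.1 CPM in astrocyte-like nuclei.

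In immature nuclei, 6 of 21 other premyelinating genes were lower and none was higher, where 0.681% of all genes tested were lower and 0.945% higher. Their median log2 fold change was -1.38, beside -0.05 over all genes. The list holds all the markers that named the class, *Frmd4a* and *Kif19a* led its cluster, and most of its nuclei came from the controls. Lower levels of such genes can therefore not be told apart from how the class was defined. *Frmd4a*, a scaffold protein gene, had 10532, 8808, 164 and 369.7 CPM (-5.20 ± 0.50, SE, edgeR adjusted p = 0.0122). *Kif19a* (-2.19, adjusted p = 0.0453), *Epb41l2* (-1.84, adjusted p = 0.0350), *Ust* (-1.84, adjusted p = 0.0403), *Tns3* (-1.83, adjusted p = 0.0353) and *Itpr2* (-1.53, adjusted p = 0.0492) were the others, and *Itpr2* and *Tns3* were among the markers that named the class. Of 13 OPC genes tested, *Megf11* (2.60, adjusted p = 0.0264) and the growth factor receptor *Pdgfra* (11, 1, 6 and 21 UMIs, 4.51, adjusted p = 0.0350) were higher. Of 26 other regulators, *Myt1* was higher (2.40, edgeR adjusted p = 0.0384) and *Zfp365* lower (-2.21, edgeR adjusted p = 0.0497). *Zfp365* passed the filter on low counts through the controls alone, and *Pdgfra* through the libraries labelled Sel1L Syn-Cre alone. None of 17 myelin and mature stage genes was called by edgeR. Without Sel1L flox/flox replicate 1 none of these genes was called (edgeR adjusted p from 0.351 for *Frmd4a* to 0.963), and without Sel1L flox/flox replicate 2 *Frmd4a* was the only one called of those tested. *Pdgfra* ranged from 3.04 (without Sel1L Syn-Cre replicate 2, adjusted p = 0.159) to 6.19 (without Sel1L flox/flox replicate 1), *Frmd4a* from -5.98 to -4.83 and *Kif19a* from -2.83 to -1.86, the last 2 without Sel1L Syn-Cre replicate 2 and 1. The counts of this class changed with the settings: 0 genes in all were called with the replicate number as a block, with doublets kept or without integration.

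In mature nuclei, *Itpr2* (11.2, 11.2, 30.4 and 42.5 CPM) was higher by 1.70 ± 0.26 on the log2 scale (SE, edgeR adjusted p = 0.0212), the only gene called of 19 premyelinating genes. Its call was lost without Sel1L flox/flox replicate 1 (adjusted p = 0.0584) and without Sel1L Syn-Cre replicate 2 (0.0577). None of 35 myelin and mature stage genes, 29 other regulators and 15 inhibitors of differentiation was called by edgeR there. The 36 myelin and mature stage genes summed to 44499, 42153, 39187 and 36179 CPM. With the stages summed, 16 of 24 premyelinating and 27 of 35 myelin and mature stage genes were lower and 9 of 17 OPC genes higher. Of all genes tested there, 4.6% were lower and 6.32% higher. Of 34 other regulators 3 were higher and 5 lower, and of 23 inhibitors of differentiation 6 were higher and 2 lower. The mix of stages differed between the labels, and its part in these counts was not tested. In the same sums 3 of 7 astrocyte markers, *Slc1a2* (1.10, edgeR adjusted p = 0.00111), *Aqp4* (1.25, adjusted p = 0.0443) and *Slc4a4* (0.77, adjusted p = 0.0149), and 2 of 9 neuron markers, *Gad1* (0.75, adjusted p = 0.0489) and *Snap25* (0.51, adjusted p = 0.0295), were higher, and their part in these values was not tested. Without Sel1L Syn-Cre replicate 2, *Slc1a2* (edgeR adjusted p = 0.00628) was the only one of the 5 called.

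For each of the 10 genes, the genes with the most similar pattern over the 12 sums (3 classes in 4 libraries) were sought among 11599 genes by Pearson's r of log2(CPM + 1). The sums share libraries and classes, so r is given as a description. *Gpr17* was most like *Arsb* (r = 0.990), *Enpp6* most like *Prickle1* (0.986), and *Bcas1* most like *Epb41l2* (0.985) and *Sirt2* (0.984). *Myrf* was most like *Fam222a* (0.980) and the myelin enzyme gene *Cnp* (0.979), *Zfp488* most like *Arhgap35* (0.980), and *Tcf7l2* most like *D430041D05Rik* (0.979), with *Tns3* close behind (0.967). *Olig2* was most like *Tmem132d* (0.969). *Nkx2-2* (*Dhx9*, 0.935), *Olig1* (*Rhobtb1*, 0.915) and *Sox10* (*Zfp865*, 0.899) had lower values for their nearest gene. Some of the 10 genes overlap others in the GENCODE annotation, *Olig1* with *Gm15966*, *Nkx2-2* with *Nkx2-2os* and *6430503K07Rik*, *Gpr17* with *Lims2*, *Bcas1* with *Bcas1os1* and *Bcas1os2*, *Enpp6* with *Gm45600* and *4930579M01Rik*, and *Tcf7l2* with *Ppnr*. Whether the counting used strand is not given in the sources used here, so reads of such pairs may not be told apart.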

How the data were processed

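Per the labels and the study's methods, nuclei of cortex and hippocampus were sorted and made into 10x Genomics 3′ v3 libraries, 1 per mouse, and the authors counted reads with Cell Ranger 6.1.0 on GRCm38. What was deposited are raw counts of UMIs for 32286 features in each barcode, neither normalized nor filtered on doublets. Whether introns or strand were counted is not given in the sources used here. Groups came from the genotype labels.

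Here a nucleus needed more than 600 genes and mitochondrial UMIs below 5%. The highest Scrublet doublet scores (0.8% per 1000 nuclei) were left out, which left 11116, 7864, 7538 and 6805 nuclei with 66495506 to 101185072 UMIs. They were integrated in Seurat 5.3.0 (2000 variable features without the 10 genes, 17 dimensions, resolution 0.2), and lineage nuclei were clustered again on 15 dimensions. Names came from marker lists. For each class, the UMIs of a library were summed and tested with edgeR 4.0.16 (TMM, filterByExpr, quasi-likelihood F test, prior count 0.125, adjusted p under 0.05, R 4.3.3). SEs were derived from fold changes and F statistics. Shares were compared by two-sided exact permutation, with 95% Wilson intervals and the limit of 3 counts at 0 covering counting error only. Alternatives were DESeq2 1.42.0, edgeR's legacy test, library totals in place of TMM, other filters, a prior count of 2, thinning, doublets kept, more than 200 genes, classes without integration (scanpy 1.11.5), a replicate block and each library left out. With 1 library left in an arm, that library is assumed to vary like the others. Simulated counts with 4-fold changes were recovered for 92 of 94 genes in OPC-like, 45 of 90 in immature and 93 of 98 in mature sums, and 2-fold changes for 46 of 94, 4 of 97 and 34 of 98.

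The genes and lists were chosen with earlier results of these data known. Named are all 10 genes, from each list the genes called with at least 20 counts (at most 6 per direction by fold change), and the 3 most similar genes of each among genes with at least 100 counts, of which the text gives the nearest and some others.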

Additional observations from a re-analysis of the deposited data

Results flagged for a closer look

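UMIs of the Cre feature were counted outside the comparisons of the 10 genes. OPC-like nuclei held 31 of them in the library labelled Sel1L flox/flox replicate 1, 19 in Sel1L Syn-Cre replicate 1 and 12 in Sel1L Syn-Cre replicate 2, against 0 in Sel1L flox/flox replicate 2, where the limit of 3 counts is 2.20 CPM. Scaled by the UMIs of the class these were 17.9, 16.9 and 12.2 CPM, beside 4.27, 3.51 and 3.29 CPM in neuron-like nuclei of the same libraries. Mature oligodendrocyte-like nuclei held 2, 0, 0 and 0 Cre UMIs and immature nuclei 1, 0, 1 and 0. The measurement was listed because it is a signal in a feature that the report does not compare and is above the limit at 0 in the library without it.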

How the results depend on the processing

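Over 29 pairs of a gene and a class and 402 values under alternatives, 344 kept their direction and side of the threshold, 12 lost a call, 14 gained one and 32 changed direction. *Nkx2-2* in OPC-like nuclei kept its direction in every alternative run, and its call in all but 4 of them.

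The number of genes called in OPC-like nuclei, 462, was 147 with DESeq2, 173 with no filter and 159 to 594 with a library left out. In immature nuclei, 74 became 153 with the legacy test, 114 with at least 10 counts in every library, 3 when thinned, 278 in the *Bmp4*-led nuclei alone and 0 to 465 with a library left out. It was 0 in edgeR with library totals (804 at an unadjusted p under 0.05), no filter (1429), the replicate block (592), doublets kept (623) and without integration (439), and without Sel1L flox/flox replicate 1 (80). In mature nuclei, 99 became 2 with no filter, 573 with the replicate block, 16 with doublets kept, 149 without integration and 64 to 499 with a library left out. In the summed lineage, 1481 became 947 with DESeq2, 783 with no filter, 869 with doublets kept and 737 to 1897 with a library left out. The interaction count of 58 was 21 with DESeq2, 4 with doublets kept and 0 to 31 with a library left out. The cause was not tested.

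Shares of OPC-like nuclei differed by 21.1 points of the lineage, -0.499 of all kept nuclei and 2.88 of nuclei other than neurons, immature by -2.89 of the lineage, -3.66 without integration, -0.814 of all kept and -2.23 of nuclei other than neurons, and mature by -18.2 of the lineage, -10.7 of all kept and -25.6 of nuclei other than neurons. With a library left out they were 18.3 to 24.0, -3.41 to -2.38 and -20.5 to -15.9 points.

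Some log2 fold changes of genes that were not called changed direction. With doublets kept, OPC-like *Olig2* was 0.055 and *Zfp488* 0.036, immature *Sox10* 0.33 and lineage *Zfp488* 0.0098. Without integration, OPC-like *Myrf* was 0.038 and immature *Olig2* -0.27. With library totals, immature *Olig1* was 0.010, *Sox10* 0.059 and lineage *Zfp488* 0.0056. With no filter, immature *Olig2* was -0.24 and mature *Nkx2-2* -0.015. Thinned, immature *Sox10* was 0.080, mature *Nkx2-2* -0.24 and lineage *Zfp488* 0.19. With DESeq2, immature *Sox10* was 0.018, and in the *Bmp4*-led nuclei *Olig2* was -0.11 and *Sox10* 0.081. With a library left out, the ranges that crossed 0 were, in OPC-like nuclei, -0.27 to 0.19 (*Olig2*), -0.041 to 0.38 (*Sox10*), -0.29 to 0.18 (*Myrf*) and -0.26 to 0.015 (*Tcf7l2*), in immature nuclei -0.58 to 0.14 (*Olig1*), -0.71 to 0.32 (*Olig2*) and -0.17 to 0.14 (*Sox10*), in mature nuclei -0.36 to 0.13 (*Sox10*), -0.34 to 0.48 (*Nkx2-2*), -0.26 to 0.34 (*Zfp488*), -0.026 to 0.62 (*Tcf7l2*) and -0.73 to 0.34 (*Enpp6*), and in the lineage -0.20 to 0.42 (*Olig2*), -0.28 to 0.13 (*Sox10*), -0.23 to 0.049 (*Zfp488*) and -0.47 to 0.25 (*Gpr17*). The median of all genes moved by over 0.1 in immature nuclei with no filter (to -0.61) and without integration (to -0.21).

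The labels tie replicate numbers to no litter, batch or day, but under each label replicate 1 was male and replicate 2 female by *Xist* and *Ddx3y*, so the replicate block is also a block on sex. Same-numbered libraries deviated together (r = 0.263 in OPC-like, 0.243 in immature and 0.270 in mature sums, 2 pairs), and the block gave 504 genes in OPC-like nuclei and 2193 in the lineage. Depth limits the immature class most, with 10 and 12 nuclei under one label.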

Other observations

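Some levels were also measured in whole libraries, over all kept nuclei. *Enpp6* had 14.4, 9.84, 2.83 and 1.55 CPM and *Bcas1* 87.7, 72.3, 24.6 and 20.3 CPM, while the lineage made up 21.2%, 20.3%, 8.53% and 8.98% of kept nuclei. *Tcf7l2*, which other cell types also hold, had 35.2, 25.9, 28.2 and 14.2 CPM.

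A sub-cluster of mature nuclei led by *Cxcl12*, *Ctps* and *Synpr* held 358, 214, 43 and 34 nuclei. It was not compared further.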
